A study of Bos taurus with 46 samples.

Results

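Plasma microRNAs (miRNAs) of non-pregnant heifers were compared between Day 8 of the oestrous cycle (NP8) and Day 0, the day of oestrus (NP0). The comparison held 16 of the 46 libraries of the study, chosen by their day and group labels: the NP8 and the NP0 library of each of 8 heifers, paired by the heifer number. The other 30 libraries were Day 16 samples of the same heifers (NP16) and samples of pregnant heifers. All 8 animals were cycling Holstein-Friesian heifers of breeding age, kept on a single farm. Their oestrus had been synchronised with a progesterone-releasing vaginal insert, the GnRH analogue buserelin and the prostaglandin analogue cloprostenol, and they were then sham-inseminated. Both groups therefore carried the same hormone treatment, with the Day 0 bleed closer to it in time than the Day 8 bleed, so the day of the cycle and the time since treatment cannot be told apart. Jugular blood was drawn into EDTA, and the plasma was spun once to remove cells and again to remove debris and platelets. RNA was extracted with TRIzol LS, and small RNA was sequenced.

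A miRNA is a short RNA that binds messenger RNAs and lowers their translation or stability. In plasma, miRNAs are carried in vesicles and in protein complexes, and they come from blood cells, endothelium, liver and other tissues. At oestrus the ovary carries a preovulatory follicle that secretes oestradiol, and in the early luteal phase a corpus luteum formed from the ovulated follicle secretes progesterone.

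Counts were deposited for 870 miRNA names, of which 677 had a read in the 16 libraries. Levels are given as deposited RPM values, the reads of a miRNA scaled to the mapped reads of its library, so that they are relative and not absolute. The filter removed names that stayed below 25 RPM in over 75% of libraries in every study group, and 214 names were tested (209 bovine and 5 human). Of these, 200 passed that filter on both days, 7 passed in NP8 but not in NP0, 6 in NP0 but not in NP8, and 1 passed through other groups. Of the 214, 188 had at least 50 reads in each of the 16 libraries. Libraries held 2197709 to 4700764 miRNA reads in NP8 and 1299679 to 3818770 in NP0, a difference of 0.40 on the log2 scale that was positive in 6 of 8 heifers (two-sided exact sign-flip test over heifers, p = 0.102; adjusted over 7 library measures, p = 0.355). miRNA made up 70.8 ± 4.67% of mapped reads in NP8 and 68.4 ± 8.96% in NP0 (SD, n = 8 each; exact sign-flip test, p = 0.359). The lowest shares were those of the NP0 libraries of heifers 16 and 18, at 52.5% and 57.8%, which also had the highest shares of reads with human names, at 0.274% and 0.197%. The NP0 library of heifer 16 had the lowest median correlation with its group (0.943), and the main results are also given without heifers 16 and 18.

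No miRNA passed the FDR limit of 0.1 between NP8 and NP0 (edgeR's quasi-likelihood test with the heifer as a block, Benjamini-Hochberg adjustment, smallest adjusted p = 0.350). At an unadjusted p under 0.05 there were 23 of 214 miRNAs (10.7%), 8 of them higher in NP8 (3.74%) and 15 lower (7.01%). Scaling to library totals in place of TMM left 12, of which 1 was higher and 11 lower, and a fit with no heifer block gave 19 (8.88%), with 1 higher and 18 lower (8.41%). DESeq2 called 5 miRNAs at the same FDR limit (2.34%) and 37 at an unadjusted p under 0.05. All 5 were lower in NP8. They were miR-136, miR-154c, miR-381 and miR-432 of the Dlk1-Dio3 cluster, and miR-199a-5p. Without heifers 16 and 18, a setting added after seeing the data, DESeq2 called 0 miRNAs (smallest adjusted p = 0.203), with 16 at an unadjusted p under 0.05. Without heifer 21, edgeR's test called 21 miRNAs (9.81%), 11 higher (5.14%) and 10 lower (4.67%) in NP8, with a smallest adjusted p of 0.0648. Leaving out any other single heifer left 0 calls, with 11 to 20 miRNAs at an unadjusted p under 0.05. Without heifer 16 there were 15 (7.01%), of which 3 were higher (1.4%) and 12 lower (5.61%). With edgeR and without heifers 16 and 18, also chosen after seeing the data, there were 16 (7.48%), of which 5 were higher (2.34%) and 11 lower (5.14%). Standard errors of the log2 fold changes ran from 0.12 to 0.91 with a median of 0.18.

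The median log2 fold change over all 214 miRNAs was 0.04, with 122 positive and 92 negative. For none of the 214 were the 8 NP8 values all above or all below the 8 NP0 values. Within heifers, miR-432 and miR-23a were lower on Day 8 than on Day 0 in 8 of 8 animals (2 of 214 miRNAs, 0.935%), and no miRNA was higher in 8 of 8. At least 7 of 8 heifers had lower RPM in NP8 for 14 miRNAs (6.54%) and higher RPM for 17 (7.94%). At least 6 of 8 had lower RPM for 33 (15.4%) and higher RPM for 56 (26.2%). These counts use RPM without TMM scaling, so a shift of a whole library enters them. The median difference of log2(RPM + 1) over all 214 miRNAs ran from -0.25 in heifer 16 to 0.20 in heifer 34. It was positive in heifers 20, 22, 25, 34 and 35. For miR-23a the difference in heifer 22 was only -0.0025. The fold changes below come from edgeR's fit, as log2 of NP8 over NP0 ± SE, and none of them passed the FDR limit in that fit.

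**Figure D1:**
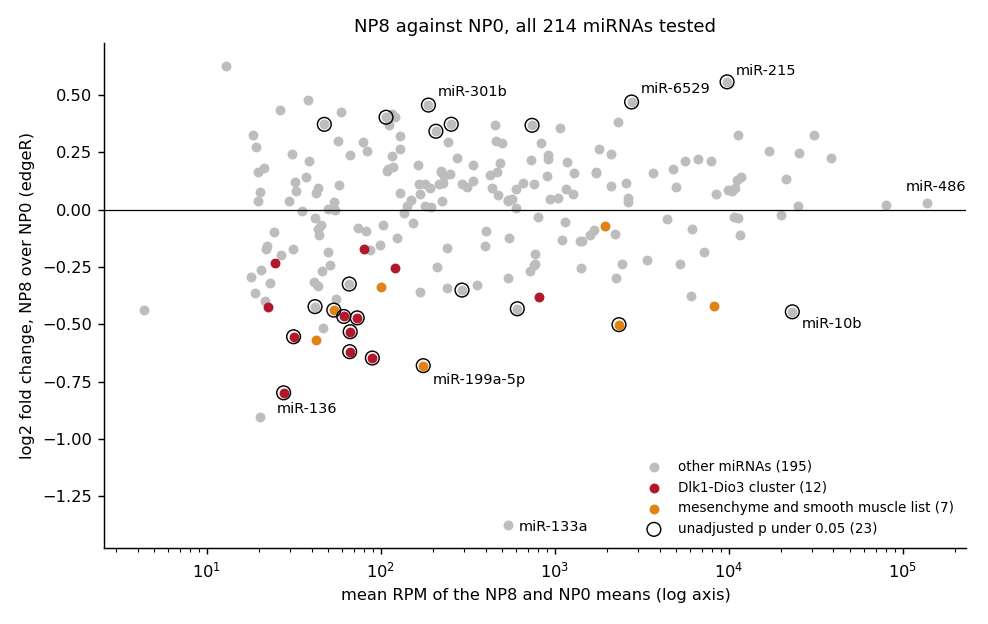
Each point is one of the 214 miRNAs tested, with the mean RPM of the NP8 and NP0 means on a log axis and the log2 fold change of NP8 over NP0 (edgeR) on the vertical axis; rings mark the 23 miRNAs at an unadjusted p under 0.05. The 12 members of the Dlk1-Dio3 cluster and the 7 of the mesenchyme and smooth muscle list lie below 0, and miR-133a, the lowest point at -1.38, has no ring.

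The miRNAs with the smallest p belonged to the Dlk1-Dio3 cluster, an imprinted locus whose miRNAs are made as a long series from the maternally inherited chromosome. Of 49 names of this cluster, 12 were tested, and all 12 had a negative log2 fold change, against 92 of 214 (43%) over all miRNAs. One of them, miR-409b, passed the filter on low values through NP0 alone, the group where it was higher, so that the filter favoured its sign (named after its values were seen). The other 11 were all negative. Of these, miR-136 passed the filter in NP0 and in the groups of pregnant heifers, and not in NP8. Members of a shared locus can move together within a heifer, so these signs are not separate observations. The list was chosen with earlier results of these data known. The median of the 12 was -0.47, and that of the 11 also -0.47, beside 0.04 over all miRNAs. At an unadjusted p under 0.05 were 7 of the 12, all lower in NP8, beside 15 of 214 lower (7.01%) over all miRNAs. The direction of all 12 held with library totals, with DESeq2 size factors and without each heifer in turn. With each heifer left out, the median lay between -0.55 and -0.32. Then 4 to 7 members were at an unadjusted p under 0.05, beside 11 to 50 of all 214. DESeq2 called 4 of the 12, beside 5 of all 214 (2.34%), and 0 without heifers 16 and 18. With edgeR and without heifer 21, 5 of the 12 were called, beside 21 of all 214 (9.81%). In plasma, fewer cells that release a miRNA and less release per cell cannot be told apart.

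miR-136 (chromosome 21, 65870126 to 65870148, plus strand, bovine genome UMD 3.1) had 10.4, 20.8 and 28.5 RPM in NP8 (lowest, median and highest), against 22.9, 33.5 and 60.4 RPM in NP0. The groups overlapped between 22.9 and 28.5 RPM, and only heifer 34 had more on Day 8. Its log2 fold change was -0.80 ± 0.22, a fold of 0.575 (edgeR, p = 0.00327, adjusted p = 0.350; DESeq2, adjusted p = 0.0314). Its largest differences were those of heifers 16 and 18, and without them the log2 fold change was -0.53 (edgeR, p = 0.0310; DESeq2, adjusted p = 0.477). At this level it is a low miRNA, with at least 55 reads in each library. It lies next to miR-432 (65869939 to 65869961), which had 18.4, 24.3 and 33.1 RPM in NP8, against 24.3, 36.5 and 46.8 RPM in NP0. miR-432 was the only miRNA of the 23 that was lower in every heifer, and its log2 fold change was -0.55 ± 0.17 (edgeR, p = 0.00653), and -0.52 without heifers 16 and 18 (edgeR, p = 0.0255).

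Further along the cluster, miR-381 (66021990 to 66022011) had 43.7, 65.8 and 103 RPM in NP8, against 67.1, 103 and 163 RPM in NP0, and a log2 fold change of -0.65 ± 0.20 (edgeR, p = 0.00623). miR-154c (66014165 to 66014186) had 33.8, 51.6 and 70.2 RPM in NP8, against 54.2, 76.6 and 111 RPM in NP0, with -0.62 ± 0.18 (edgeR, p = 0.00536). Both were lower on Day 8 in 6 of 8 heifers, with heifers 20 and 21 on the other side, and the ranges of the groups overlapped. miR-381 without heifers 16 and 18 had -0.48 (edgeR, p = 0.0447), and miR-154c had -0.53 (edgeR, p = 0.0309). miR-380-3p (-0.53 ± 0.21), miR-411a (-0.47 ± 0.20) and miR-369-3p (-0.47 ± 0.17) were each lower in 6 of 8 heifers. miR-380-3p kept a narrow range in NP8, with a median of 51.9 and a highest value of 58.3 RPM, against 41.6, 70.1 and 124 RPM in NP0.

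The most abundant member was miR-127, named here after its values were seen, with 489, 706 and 813 RPM in NP8, against 598, 718 and 1565 RPM in NP0. It was higher on Day 8 in 5 of 8 heifers, and its log2 fold change was -0.38 ± 0.19. Heifers 16, 18 and 22 had the highest NP0 values of miR-127. The summed level of the cluster was 973, 1340.1 and 1543 RPM in NP8, against 1273, 1558 and 2612 RPM in NP0, and it was higher on Day 8 in 3 of 8 heifers. The largest differences were those of heifer 16 (973 RPM in NP8, against 2612 in NP0), heifer 18 (1274 against 2256) and heifer 22 (1197 against 2220). In the other 5 heifers the log2 difference of the sums lay between -0.23 and 0.14. Heifers 16 and 18 are those with a low miRNA share on Day 0, and heifer 22 had 74.5% miRNA in its NP0 library. Without heifers 16 and 18 all 12 members kept a negative fold change, with a median of -0.44. Of the 12, 6 were then at an unadjusted p under 0.05, beside 16 of 214 (7.48%) over all miRNAs. The part of library quality in the size of the difference was not tested.

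**Figure D2:**
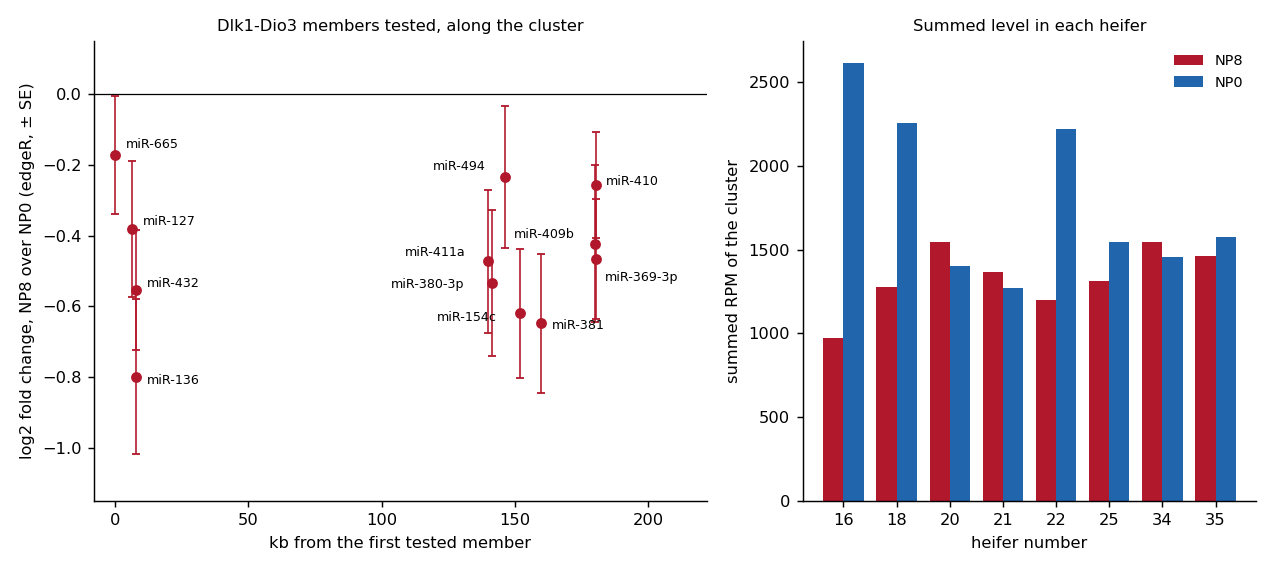
Left, the 12 tested miRNAs of the Dlk1-Dio3 cluster by their distance in kb from the first tested member, with the log2 fold change of NP8 over NP0 and its standard error (edgeR). Right, the summed RPM of the cluster in each heifer in NP8 (red) and NP0 (blue): bars of heifers 16, 18 and 22 differ most, and those of heifers 20, 21 and 34 are higher in NP8.

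The mesenchyme and smooth muscle list (miR-143, miR-145, the miR-199 family and miR-214, which are abundant in fibroblasts and contractile cells) had 7 members tested. All 7 were negative, with a median of -0.44, beside 92 of 214 (43%) negative over all miRNAs. Of the 7, 3 were at an unadjusted p under 0.05, all lower in NP8, beside 15 of 214 lower (7.01%) over all miRNAs. With each heifer left out, 6 or 7 were negative and 1 to 5 were at that limit, beside 11 to 50 of all 214. Without heifers 16 and 18 all 7 were negative, with a median of -0.41. Then 3 were at that limit, beside 16 of 214 (7.48%). miR-199a-5p (chromosome 16, 36247840 to 36247861, minus strand) had 82.7, 123 and 187 RPM in NP8, against 127, 185 and 452 RPM in NP0, and was lower on Day 8 in all heifers but 21. Its log2 fold change was -0.68 ± 0.23 (edgeR, p = 0.0106; DESeq2, adjusted p = 0.0833), and it was -0.41 without heifers 16 and 18 (edgeR, p = 0.0861).

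miR-214, made from the same transcript as miR-199a in mammals and listed as its neighbour on chromosome 16 (36242013 to 36242034), had a median of 49 and a highest value of 55.6 RPM in NP8, against a median of 63.6 and a lowest value of 49 RPM in NP0. The overlap of its groups was narrow, and 6 of the 8 NP0 values lay above every NP8 value. The fitted log2 fold change was -0.44 ± 0.16 (edgeR, p = 0.0193), and -0.48 without heifers 16 and 18 (edgeR, p = 0.0278). miR-199c (chromosome 11) had 1356, 1980.4 and 2994 RPM in NP8, against 1589.9, 2655 and 3568 RPM in NP0, with -0.50 ± 0.19 (edgeR, p = 0.0194), and -0.57 without heifers 16 and 18 (edgeR, p = 0.0254). Its listed position overlaps those of miR-199a-3p and miR-199b, and reads of these near-identical names may be split between them. The summed level of the list was 7358 RPM in NP8 against 36443 RPM in NP0 in heifer 16, and 23659.9 against 13159.7 RPM in heifer 18, so that these animals moved in opposite directions. miR-145, a smooth muscle miRNA, was lower on Day 8 in 7 of 8 heifers. Its log2 fold change was -0.57 ± 0.31 (edgeR, p = 0.0895), and it was -0.27 without heifer 16.

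Other miRNAs that leaned lower in NP8 were spread over the genome. miR-10b, encoded among the HOXD genes and one of the 10 most abundant miRNAs here, had 14893, 19449 and 27697 RPM in NP8, against 18177, 28606 and 34349 RPM in NP0. It was lower on Day 8 in 7 of 8 heifers, heifer 20 being the exception, and the ranges overlapped. Its log2 fold change was -0.45 ± 0.17 (edgeR, p = 0.0217), and -0.58 without heifers 16 and 18 (edgeR, p = 0.00898). It made up 2.82 ± 0.666% of miRNA reads in NP8 and 3.91 ± 0.812% in NP0 (SD, n = 8 each).

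On the X chromosome, miR-3431 and miR-224, which lie next to each other, were lower on Day 8 in 7 of 8 heifers. miR-224, a miRNA studied in granulosa cells of the follicle, had 42.1, 57.3 and 84.2 RPM in NP8, against 48.2, 71.4 and 88 RPM in NP0, with a log2 fold change of -0.32 ± 0.14 (edgeR, p = 0.0435). miR-3431 had -0.42 ± 0.16 (edgeR, p = 0.0207). Of the 10 tested names on the list of follicle and corpus luteum miRNAs, 6 were negative and 4 positive, with a median of -0.09. Over all miRNAs 92 of 214 (43%) were negative. On this list miR-224 was the only one at an unadjusted p under 0.05 (edgeR), beside 23 of 214 (10.7%) over all miRNAs. On the same chromosome miR-532 (-0.35 ± 0.14) and miR-660 (-0.30 ± 0.14), of one cluster, were lower in 6 and 7 of 8 heifers.

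In the family of miR-125 with miR-99 and miR-100, 5 of 5 tested members were negative with a median of -0.30. The miR-23, miR-27 and miR-24 clusters had 5 of 5 negative with a median of -0.24. Both had 4 of 5 negative without heifers 16 and 18. Over all miRNAs, 92 of 214 (43%) were negative in the main fit. The miR-193 and miR-365 list had 4 of 4 negative with a median of -0.23, although its member miR-193a passed the filter through NP0 alone. None of the members of these lists was at an unadjusted p under 0.05 (edgeR). miR-125a (-0.30 ± 0.14) was lower in 7 of 8 heifers, whereas miR-100 (-0.33 ± 0.21) was lower in 4 of 8. miR-23a, at 1595, 2308 and 2951 RPM in NP8, against 1831, 2594 and 3255 RPM in NP0, was lower in every heifer by a small amount (-0.24 ± 0.13; edgeR, p = 0.0816). Its neighbour miR-27a-3p had -0.38 ± 0.18 and was lower in 5 of 8. Among epithelial miRNAs, miR-205 was at -0.43 ± 0.20 (edgeR, p = 0.0483) and lower in 6 of 8 heifers, while the other 4 tested members of its list, miR-429 among them (0.37 ± 0.21), had positive values.

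**Figure D3:**
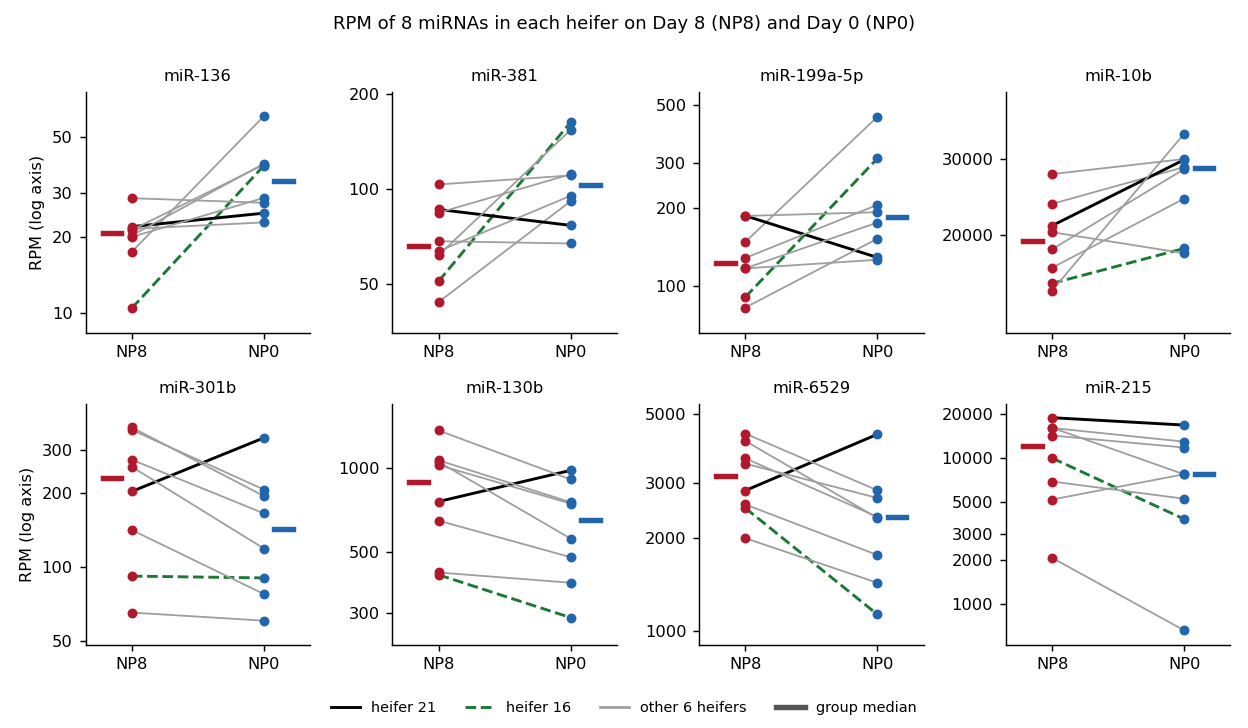
RPM (log axis) of 8 miRNAs in each heifer, NP8 on the left and NP0 on the right of each panel; lines join the 2 libraries of a heifer and short bars are group medians. In the upper row most lines climb towards NP0 and in the lower row most fall towards it, and the black line of heifer 21 runs against the others for miR-381, miR-199a-5p, miR-301b, miR-130b and miR-6529.

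Of the 8 miRNAs that were higher in NP8 at an unadjusted p under 0.05, a pair came from one place. miR-301b and miR-130b, neighbours of a shared cluster on chromosome 17 (75467857 to 75467881 and 75467538 to 75467559, minus strand), were both higher on Day 8 in 7 of 8 heifers. miR-301b had 65.2, 229 and 369 RPM in NP8, against 60.4, 142 and 335 RPM in NP0, with a log2 fold change of 0.46 ± 0.17 (edgeR, p = 0.0201). miR-130b had 413, 891 and 1365 RPM in NP8, against 289, 651 and 981 RPM in NP0, with 0.37 ± 0.15 (edgeR, p = 0.0262). The ranges overlapped widely, and heifers differed more from each other than the days did within a heifer. Without heifers 16 and 18 the log2 fold change of miR-301b was 0.51 (edgeR, p = 0.0301) and that of miR-130b was 0.31 (edgeR, p = 0.0973). Of the 4 tested members of the miR-130 and miR-301 family, 3 were positive, beside 122 of 214 (57.0%) over all miRNAs, and the median was 0.30.

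miR-425-3p and miR-191, which share a locus on chromosome 22 and are abundant in platelets, were also higher on Day 8 in 7 of 8 heifers. miR-191 had 15355, 34938 and 50352 RPM in NP8, against 14067, 25401 and 56953 RPM in NP0, and the highest NP0 value was that of heifer 21. Its log2 fold change was 0.33 ± 0.17 (edgeR, p = 0.0840), and that of miR-425-3p was 0.40 ± 0.17 (edgeR, p = 0.0354), which became 0.38 without heifers 16 and 18 (edgeR, p = 0.0885). The platelet list had 6 of 8 members positive with a median of 0.16, beside 122 of 214 (57.0%) positive over all miRNAs. Its summed level was 22090.1, 45687 and 60123 RPM in NP8, against 19781, 33730.1 and 70716 RPM in NP0. This sum was higher on Day 8 in 6 of 8 heifers, and heifer 21 had the largest difference in the other direction (-0.69 on the log2 scale). The part of platelet content in the values of miR-191 and miR-425-3p was not tested.

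miR-215, made in liver and gut with miR-192, had 2068, 12146 and 18942 RPM in NP8, against 657, 7743 and 16854 RPM in NP0. Only heifer 35 had less on Day 8. Its log2 fold change was 0.56 ± 0.25, a fold of 1.47 (edgeR, p = 0.0426), the largest of the 23 in the positive direction. It was 0.39 without heifers 16 and 18 (edgeR, p = 0.146). miR-192 itself had 0.23 ± 0.23 and was higher in 5 of 8 heifers. miR-122 of the same liver and gut list had -0.18 ± 0.37 and was lower in 5 of 8. The list had 3 of 4 members positive with a median of 0.15, beside 122 of 214 (57.0%) positive over all miRNAs. That median lay between 0.008 and 0.32 with each heifer left out.

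miR-6529 had 1994, 3154 and 4335 RPM in NP8, against 1132, 2326 and 4314 RPM in NP0, with a log2 fold change of 0.47 ± 0.19 (edgeR, p = 0.0270). It was higher on Day 8 in all heifers but 21, whose NP0 value was the highest of that day. Without heifers 16 and 18 its log2 fold change was 0.29 (edgeR, p = 0.146). miR-155, induced in activated lymphocytes and macrophages, had 92.2, 245 and 499 RPM in NP8, against 63.8, 172 and 304 RPM in NP0, with 0.34 ± 0.14 (edgeR, p = 0.0318) and a higher value on Day 8 in 7 of 8 heifers. This value was 0.28 without heifers 16 and 18 (edgeR, p = 0.130). The leukocyte list as a whole was even, with 5 of 10 members positive and 5 negative and a median of 0.06. Its sum was 29269, 49096 and 58205 RPM in NP8, against 31165, 46303 and 53659.8 RPM in NP0. miR-142-3p, a miRNA of blood cells, had a larger value than most of that list (0.37 ± 0.21) but was higher in only 5 of 8 heifers.

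Several families had mostly positive values, beside 122 of 214 (57.0%) positive over all miRNAs, and the counts were not tested against that share. Apart from miR-18a, no member of these families was at an unadjusted p under 0.05. The miR-26 family had 3 of 3 positive with a median of 0.22, which lay between 0.04 and 0.48 with each heifer left out and was 0.45 without heifers 16 and 18. Its members miR-26a and miR-26c overlap in position, and miR-26a was higher on Day 8 in 5 of 8 heifers (0.21 ± 0.34). miR-221 and miR-222 were both positive, with a median of 0.13. Larger families of this kind were miR-2284 and miR-2285, a large family of ruminants, with 7 of 10 positive, and the let-7 family, with 9 of 10 positive. In the ruminant family, miR-2284z (0.30 ± 0.14) and miR-2284aa (0.29 ± 0.14) were higher in 7 of 8 heifers. Their listed positions differ by 1 base, so that the same reads may count for both, and without heifers 16 and 18 the family had 5 of 10 positive and a median of 0.02. The let-7 median was 0.10, and it lay between -0.05 and 0.26 with each heifer left out, when 1 to 8 members were negative. It had 6 of 10 negative without heifers 16 and 18. In the miR-17-92 family 9 of 12 were positive (7 of 12 with library totals and 4 of 12 without heifers 16 and 18) with a median of 0.07. Its member miR-18a, which was under the limit of 0.05, had 0.37 ± 0.17 (edgeR, p = 0.0465).

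**Figure D4:**
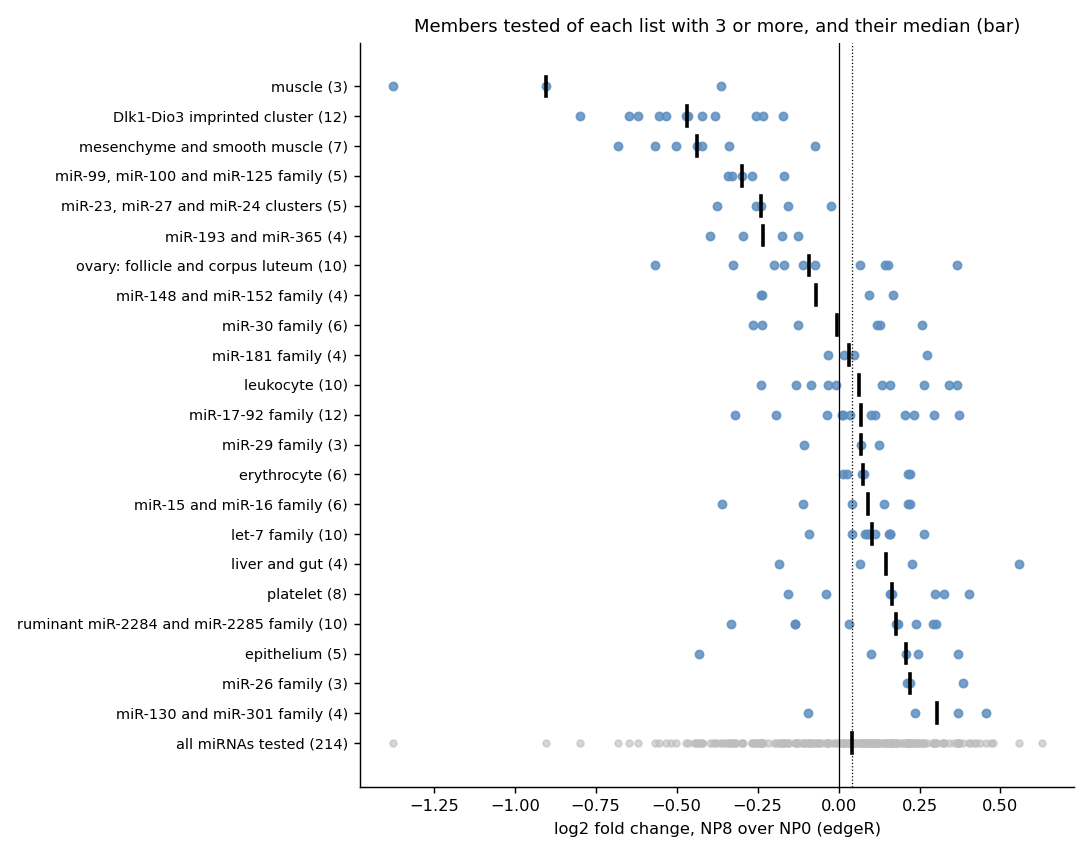
Log2 fold change of NP8 over NP0 (edgeR) for each tested member of the lists with 3 or more tested members: points are miRNAs, thick bars are list medians, and the dotted line is the median of all 214 miRNAs (0.04), which are shown in the bottom row. Of the lists with more than 5 tested members, the Dlk1-Dio3 cluster and the mesenchyme and smooth muscle list have none above 0, and the medians of the rest lie between -0.09 and 0.18.

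Besides miR-10b and miR-191, the 10 most abundant miRNAs included miR-486 and miR-22-3p, the largest shares of the reads. miR-486, an erythrocyte miRNA encoded in the ANK1 gene, made up 19.5 ± 11.0% of miRNA reads in NP8 and 19.8 ± 12.2% in NP0 (SD, n = 8 each). It was higher on Day 8 in 4 of 8 heifers, and its log2 fold change was 0.03 ± 0.46, which turned to -0.33 without heifer 16. miR-22-3p made up 11.5 ± 2.62% in NP8 and 11.6 ± 3.02% in NP0. The erythrocyte list had 6 of 6 members positive with a median of 0.08, beside 122 of 214 (57.0%) positive over all miRNAs. It had 5 of 6 with library totals, 2 of 6 without heifer 21 and 0 of 6 without heifers 16 and 18. The direction of the list thus changed with the animals included. Its sum was 254822 RPM in NP8 against 56339 RPM in NP0 in heifer 16, and 87773 against 283659.9 RPM in heifer 34. The log2 ratio of miR-451 to miR-23a, taken as a sign of haemolysis, was 2.17 ± 0.783 in NP8 and 1.82 ± 1.05 in NP0 (SD, n = 8 each; two-sided exact sign-flip test, p = 0.422).

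Of the 214 miRNAs, miR-133a of striated muscle had the log2 fold change farthest from 0 and the largest standard error. It had 22.3, 85.4 and 2915 RPM in NP8, against 85.7, 258 and 2309 RPM in NP0. A single library set the top of each group, that of heifer 35 in NP8 and that of heifer 22 in NP0, and the log2 fold change was -1.38 ± 0.91 (edgeR, p = 0.154). It lay between -1.87 and -0.80 with each heifer left out, the value nearest to 0 being that without heifer 22. miR-208b, from an intron of a cardiac myosin gene, and miR-499 were low in plasma, with medians of 8.84 and 12.9 RPM in NP8 and 21.5 and 18.5 RPM in NP0. miR-208b passed the filter on low values through NP0 alone, where it was higher, so that the filter favoured its sign. It had a log2 fold change of -0.90 ± 0.44, and -0.49 without heifer 22. That of miR-499 was -0.36 ± 0.26, and -0.18 without heifer 34. When no filter on low values was used, 7 of 677 miRNAs (1.03%) were called, all lower in NP8, and 52 (7.68%) were at an unadjusted p under 0.05, with 14 higher (2.07%) and 38 lower (5.61%). The 7 were miR-133a, miR-133b, miR-208b, miR-136, miR-376b, miR-199a-5p and miR-381, of which miR-133b and miR-376b are named after their values were seen. The smallest adjusted p of that fit was 3.7e-06 (edgeR), and miR-133a stood first by p. With the filter, miR-133a had p = 0.154 (edgeR), so its call rested on the filter setting. The cause of this gap was not tested.

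The signs of neighbouring miRNAs were counted. Of the 214, 104 lay in 45 groups of names within 10000 bases of the next on the same strand, and 32 of these groups had a single sign, 13 negative and 19 positive. Paired arms of a hairpin and names that overlap count as neighbours here, so that members of a group can share reads, and most groups were pairs. With 57.0% of all miRNAs positive, many pairs would share a sign without being neighbours, and the count was not tested. The negative groups included miR-23a with miR-27a-3p and miR-24-3p, and miR-143 with miR-145. Those of a positive sign included the 6 tested names of the miR-17-92 cluster on chromosome 12.

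The 8 heifers did not move alike. Over the 20 miRNAs with the smallest p, heifer 21 had differences against the mean direction for most, with NP8 minus NP0 on log2(RPM + 1) of -0.72 for miR-301b, -0.69 for miR-425-3p, -0.60 for miR-6529 and 0.53 for miR-199a-5p. Heifer 22 had 0.92, 1.16, 0.83 and -0.68 for the same miRNAs. Root mean square differences over all 214 miRNAs ran from 0.469 in heifer 20 to 0.922 in heifer 16, with 0.557 in heifer 21. The 21 miRNAs called without heifer 21 included miR-301b (0.61) and miR-130b (0.46), miR-191 (0.47), miR-199a-5p (-0.86), miR-199c (-0.64), miR-214 (-0.53) and miR-205 (-0.57), with log2 fold changes from that fit. The NP8 and NP0 libraries of heifer 21 held 68.3% and 73.7% miRNA, within the range of the other heifers.

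**Figure D5:**
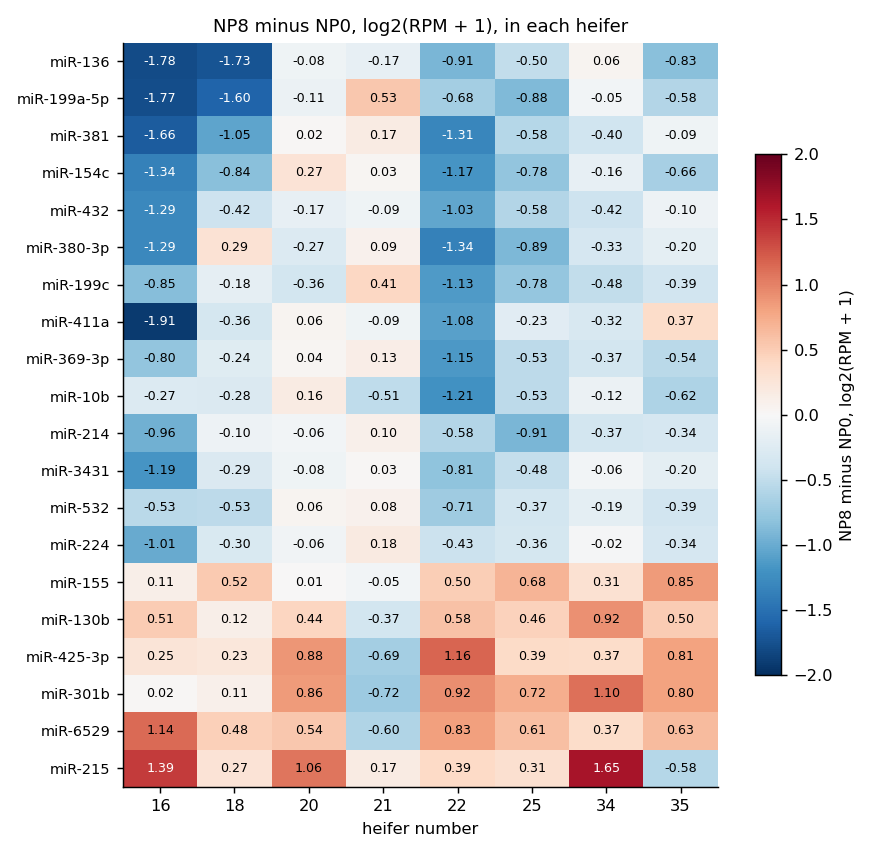
NP8 minus NP0 on log2(RPM + 1) in each heifer (columns) for the 20 miRNAs with the smallest p (rows, ordered by log2 fold change); red is higher in NP8 and blue is lower. Heifers 16, 18 and 22 hold the darkest blue cells, and the column of heifer 21 has the opposite colour to its neighbours in many rows.

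Over the whole profile, the day accounted for 5.86% of the variance of log2(RPM + 1) over the 214 miRNAs, against 4.60% on average when days were exchanged within heifers (exact permutation of days within heifers, p = 0.25). The heifer accounted for 63.2%, which was not tested. With so few libraries per heifer, a large part of this share would arise with no heifer effect. In the check of the pairing, the own heifer was the best match for 2 of 8. Without heifer 21 the share of the day was 9.53% (exact permutation, p = 0.0469). Without each of the other heifers in turn it was 4.36 to 7.01% (exact permutation, p = 0.203 to 0.625). Heifer 21 ran against the mean direction for most of the miRNAs with the smallest p, so leaving it out tends to raise this share.

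Day 16 gave the level after Day 8 in the same heifers. The step from NP0 to NP8 was set against the step from NP8 to NP16 by a contrast over the 24 NP libraries, which share the NP8 samples between both steps. No miRNA passed the FDR limit (edgeR, smallest adjusted p = 0.457), and 21 of 214 (9.81%) were at an unadjusted p under 0.05. Between NP16 and NP8, 0 miRNAs passed the limit (edgeR) and 8 were at an unadjusted p under 0.05. A miRNA chosen for a small p in the first step tends to show the opposite sign in the second, since both steps hold the NP8 libraries, so the following values are given as a description. miR-10b had a log2 fold change of 0.36 ± 0.15 for NP16 over NP8, beside -0.45 for NP8 over NP0. For miR-301b the values were -0.33 ± 0.18 and 0.46, and for miR-155 -0.35 ± 0.16 and 0.34. In the Dlk1-Dio3 cluster 12 of 12 members had a positive log2 fold change for NP16 over NP8, with a median of 0.19, beside 114 of 214 and a median of 0.01 over all miRNAs. The summed RPM of the cluster, without TMM scaling, was higher on Day 16 than on Day 8 in heifers 16 (1413 against 973) and 22 (1484 against 1197). It was lower on Day 16 in heifers 18 (1022 against 1274), 20, 21 (1068 against 1368), 25, 34 and 35. In the same fit all members of the mesenchyme and smooth muscle list (7 of 7, median 0.14) and of the erythrocyte list (6 of 6, median 0.39) were also positive. The summed RPM of the mesenchyme list was lower on Day 16 than on Day 8 in heifers 18 (9152 against 23660), 20, 21, 34 and 35. It was higher on Day 16 in heifers 16 (17984 against 7358), 22 and 25. The erythrocyte sum was lower on Day 16 only in heifer 16. miR-136 had 0.04 ± 0.21 in this step.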

How the data were processed

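The authors sequenced short single-end reads and ran sRNAtoolbox on the cow assembly UMD 3.1. A miRNA name, taken from miRBase, received a read that differed from it by at most a single base. Names of the cow came first, and human names were used to find homologues. The deposited counts are whole reads per miRNA name. The deposited RPM values were made by the authors by scaling each count to all mapped reads, other RNA included, and the number of mapped reads was recovered here from both tables. Positions are those listed beside the names, on UMD 3.1. A second block of 726 names without values in the RPM table was not used.

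The 16 NP8 and NP0 libraries were taken from the labels. Counts were tested with edgeR 4.0.16 in R 4.3.3 (TMM scaling, glmQLFit and glmQLFTest, heifer as a block, Benjamini-Hochberg adjustment over all 214 miRNAs, FDR limit 0.1), and the steps were tested on simulated counts. The block comes from the labels, by which same-numbered libraries are the same heifer. As a check, deviations from the group means correlated over 0.1 within 7 of 8 pairs (-0.0678 to 0.516), and the own heifer was the best match for 2 of 8. Heifers are separate animals with 1 library a day. With the heifer as a block or in pairs, p-values set the mean difference between the days against its variation over heifers, sequencing included. In edgeR's test the estimate of that variation also draws on the other miRNAs tested. Library measures were tested by exact sign flips (256, two-sided, smallest p 0.0078125). Alternatives were no block, library totals, DESeq2 size factors, DESeq2 1.42.0, limma 3.58.1 on log2(RPM + 1) and log2(RPM + 0.1), exact sign flips, a robust fit, no filter, filters at 100 RPM and on NP0 and NP8 alone, all 24 NP libraries, an FDR limit of 0.05 and each heifer left out. Leaving out heifers 16 and 18 together, with edgeR and with DESeq2, was added after seeing the data. Tables and figures used Python 3.11.15, numpy 2.4.6, pandas 2.3.3, scipy 1.17.1 and matplotlib 3.10.9.

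miRNAs were named by a rule: the 20 with the smallest p, the 10 most abundant, and up to 3 of the smallest p in each list. The comparison, lists and rule were chosen with earlier results of these data known. Lists are described by counts and medians only. miRNA sequences were not used here.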

Additional observations from a re-analysis of the deposited data

Results flagged for a closer look

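In 106 groups of 8 values (the named miRNAs and the library measures, on each day), 9 single libraries lay far from the other 7 of their group by Dixon's test, and chance gives about 1 in 20 groups. In the NP8 group, heifer 18 had 2994 RPM of miR-199c and heifer 35 had 2915 RPM of miR-133a. In the NP0 group, heifer 22 had 2309 RPM of miR-133a, 81.9 RPM of miR-208b and 48.2 RPM of miR-499, so that all 3 tested muscle miRNAs were high in that library. Heifer 21 had 56953 RPM of miR-191 and 17075 RPM of miR-26a in NP0. Heifer 18 had 60.4 RPM of miR-136 and heifer 16 had 129.8 RPM of miR-145 in NP0. These are values of single libraries, and their cause was not tested.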

How the results depend on the processing

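The count of calls was 0 with edgeR and the heifer as a block, and it stayed 0 with no replicate block (smallest adjusted p = 0.156), library totals, DESeq2 size factors, limma, exact sign flips, a robust fit, the filters at 100 RPM and on NP0 and NP8 alone, all 24 NP libraries, an FDR limit of 0.05 and without heifers 16 and 18. It was 5 with DESeq2 (0 with DESeq2 without heifers 16 and 18), 7 with no filter, and 0 to 21 with each heifer left out, all 21 without heifer 21. Without the replicate block 19 miRNAs were at an unadjusted p under 0.05 (1 higher and 18 lower in NP8), against 23 with it. That count was 12 with library totals, 37 with DESeq2, 52 with no filter, 15 at 100 RPM, 34 with all 24 NP libraries (16 higher and 18 lower, against 8 and 15), 16 without heifers 16 and 18, and 11 to 50 with each heifer left out. The share of variance between days was 4.36 to 9.53% with each heifer left out. The log2 difference in miRNA reads was 0.26 to 0.49 and that in mapped reads 0.23 to 0.41, with each heifer left out. That in the share of the 10 most abundant was -0.043 to 0.035, and that in the share of human names -0.30 to 0.093. The log2 fold change of miR-486 turned to -0.0050 with no filter, -0.58 without heifers 16 and 18 (-0.57 with DESeq2), and lay between -0.33 and 0.34 with each heifer left out. That of miR-22-3p turned to -0.010 with library totals and -0.017 with no filter, and lay between -0.034 and 0.074. That of miR-16a was -0.17 without heifers 16 and 18 (-0.16 with DESeq2). The cause of these turns was not tested. With 8 pairs and a median SE of 0.18 on the log2 scale, small differences of single miRNAs were not detectable, and low miRNAs such as miR-208b had the least depth.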
